A study of Mus musculus with 29 samples.

Results

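The genes described here encode the cyclin-dependent kinase (CDK) inhibitors other than p21: Cdkn1b, Cdkn1c, Cdkn2a, Cdkn2b, Cdkn2c, Cdkn2d and Cdkn3. They were taken by gene symbol, and all 7 were found among the 52929 Ensembl gene identifiers of the count tables and in each of the 3 sets of libraries. Messenger RNA was sequenced in 29 libraries from C57BL/6 mice, which fall into 8 groups. The first set held intestinal epithelial crypts from mice aged 52 weeks, 4 of genotype H2BdIEC and 4 of genotype H2B flox/flox. The second held 4 tumors and 4 pieces of adjacent tissue without tumor, both from the same 4 H2B/p53dIEC mice, and 4 pieces of tissue without tumor from H2B/p53flox/flox mice. The third held intestinal organoids, which are cultures of gut epithelium, with 3 libraries each of H2B/p53dIEC, H2BdIEC and H2B/p53flox/flox. The floxed groups are called controls below, and the organoid controls are titled WT although they are floxed for both genes. The labels give no age for the mice of the tissue and organoid sets. They name no recombinase driver. For organoids they do not say whether the 3 libraries in each group came from separate mice or lines, so tests there measure the spread between libraries, which may be technical. The H2B/p53dIEC organoids carry another title prefix than the other organoid groups, so a difference in preparation, if there was one, cannot be told apart from genotype.

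CDKs with their cyclins drive the cell cycle by phosphorylating the retinoblastoma (Rb) family of proteins, which releases E2F transcription factors. The INK4 proteins p16INK4a (from Cdkn2a), p15 (Cdkn2b), p18 (Cdkn2c) and p19INK4d (Cdkn2d) bind CDK4 and CDK6, whereas the Cip/Kip proteins p27 (Cdkn1b) and p57 (Cdkn1c) bind a wider range of cyclin-CDK complexes. Cdkn2a also encodes ARF, which binds Mdm2 and so protects p53, and Cdkn3 encodes a phosphatase that acts on CDK2 and CDK1. In the intestine these genes are known from the arrest of cells leaving the crypt, from senescence and from tumor suppression.

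Gene counts per library totalled 15545059 to 25913155 in crypts, 21884287 to 41504298 in tissue and 5774771 to 21386586 in organoids, except tissue control 1320 with 401365. In that library 3 counts are 7.47 CPM, which is counts scaled to library size, so members near or under that level could not be measured in it. Rnaseh2b, read here as the gene meant by H2B from the title of the series, ranged from 2.13 to 2.71 CPM in H2BdIEC crypts and from 6.87 to 14.4 CPM in control crypts. Trp53 ranged from 9.965 to 11.8 CPM in H2B/p53dIEC organoids, from 78.3 to 110.2 CPM in H2BdIEC organoids and from 98.3 to 115.3 CPM in organoid controls. In tissue the gap was smaller, with Trp53 at 12.6 to 29.9 CPM in tumors, 13.7 to 27.8 CPM in adjacent tissue and 39.1 to 49.6 CPM in controls. Epithelial markers (Epcam, Cdh1, Krt8, Krt18, Krt20) were detected in every group, and fibroblast markers summed to under 1 CPM in organoids. In bulk samples, fewer cells of a type and less RNA per cell cannot be told apart.

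**Figure D1:**
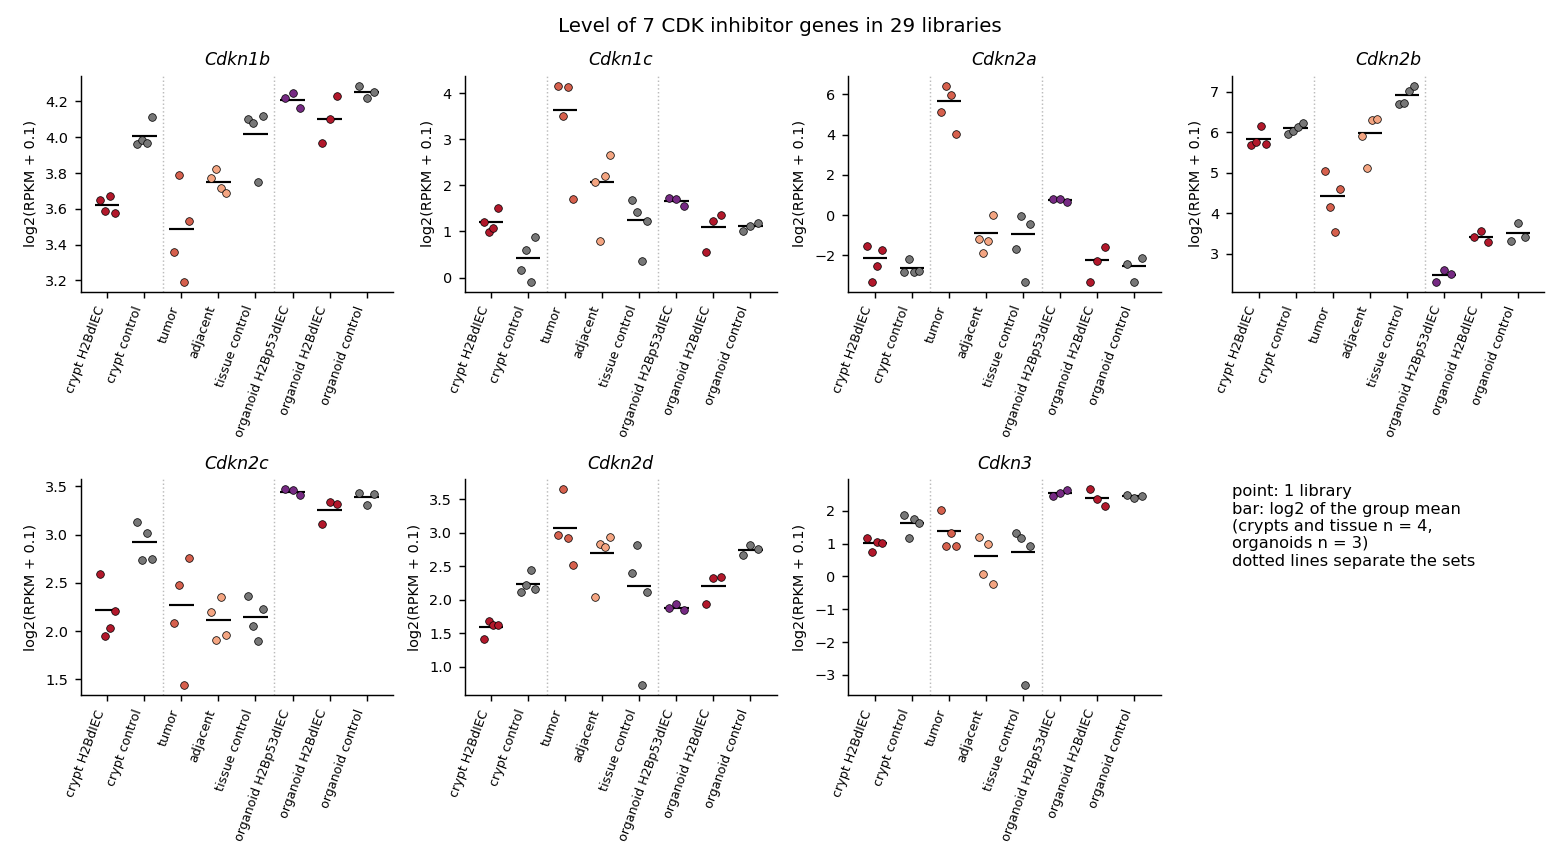
Level of each of the 7 genes in every library, as log2(RPKM + 0.1), where RPKM is CPM, scaled by TMM over all libraries, per kilobase of exon. Points are libraries and bars are log2 of group means over 4 libraries (crypts, tissue) or 3 (organoids); tumors stand highest for Cdkn2a and H2B/p53dIEC organoids lowest for Cdkn2b.

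The members differed widely in level, given here in RPKM (CPM, scaled over all 29 libraries, per kilobase of exon) so that genes can be compared. Cdkn2b was the highest of the 7 in crypts, at 57.1 ± 9.18 RPKM in H2BdIEC and 68.1 ± 5.38 RPKM in control crypts, and in tissue without tumor, at 63.3 ± 21.4 RPKM in adjacent tissue and 120.2 ± 18.6 RPKM in tissue controls (SD, n = 4 each). In tumors Cdkn2a was the highest, at 50.2 ± 30.8 RPKM (SD, n = 4). In organoids Cdkn1b was the highest, at 18.4 ± 0.519 RPKM in H2B/p53dIEC, 17.1 ± 1.57 RPKM in H2BdIEC and 18.99 ± 0.445 RPKM in control organoids (SD, n = 3 each). Levels set side by side across sets are a description, since each set holds another kind of material, and the place of crypts in an order depends on the scaling. The scaling over all libraries raised crypt values 1.28 to 1.31 times over those scaled within the set, and moved tissue values by 0.909 to 1.04 times and organoid values by 0.782 to 0.843 times.

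The order of the groups differed from gene to gene. Cdkn2b ran from tissue controls at the top through control crypts, adjacent tissue, H2BdIEC crypts, tumors, control organoids and H2BdIEC organoids to H2B/p53dIEC organoids at 5.45 ± 0.541 RPKM (SD, n = 3). Scaled within sets, adjacent tissue lay above control crypts, at 90.8 against 73.1 CPM. Neighbours in the order by RPKM overlapped in range except tissue controls and control crypts, H2BdIEC crypts and tumors, and both lowest groups. Cdkn2a ran from tumors to H2B/p53dIEC organoids at 1.57 ± 0.0870 RPKM (SD, n = 3), and neither of these ranges overlapped the next group down. The other 6 groups averaged 0.431 RPKM (adjacent tissue) or less, with every neighbouring pair overlapping. Cdkn1b spanned a narrow range, between 11.1 ± 2.02 RPKM in tumors (SD, n = 4) and 18.99 RPKM in control organoids. Scaled within sets, its lowest group was H2BdIEC crypts, at 42.95 CPM, with tumors next. Cdkn2c and Cdkn3 were both highest in the 3 organoid groups, at 9.47 to 10.8 RPKM for Cdkn2c and 5.19 to 5.73 RPKM for Cdkn3. Their lowest group by this scaling was adjacent tissue, at 4.24 and 1.44 RPKM. Scaled within sets, H2BdIEC crypts were lower than adjacent tissue, at 9.44 against 11.8 CPM for Cdkn2c and 3.495 against 3.53 CPM for Cdkn3. Cdkn2d ran from tumors at 8.29 ± 2.90 RPKM to H2BdIEC crypts at 2.90 ± 0.240 RPKM, and Cdkn1c from tumors at 12.5 ± 6.89 RPKM to control crypts at 1.25 ± 0.400 RPKM (SD, n = 4 each).

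Comparisons were made within each set, in CPM scaled by the TMM method in that set, and a gene was called changed at an adjusted p under 0.05 (edgeR quasi-likelihood test, Benjamini-Hochberg over all genes tested). The first asked how crypts of aged H2BdIEC mice differ from those of floxed mice. Of the 7 members, 6 could be tested, 3 were lower (Cdkn1b, Cdkn2c, Cdkn2d) and 0 were higher. Over all genes tested, 4.87% were called lower and 5.16% higher. At an unadjusted p under 0.05, 1 member was higher (Cdkn1c) and 4 were lower, and DESeq2 at its adjusted p gave those same counts. DESeq2 also called more of all genes, with 1280 higher and 1110 lower of 17308, where edgeR called 753 and 711 of 14596. The share of all genes at an unadjusted p is not given here or below. In 5 of the members, every H2BdIEC crypt lay on one side of every control crypt, a separation seen in 18.8% of all genes tested.

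In tumors set against adjacent tissue of the same mice, 2 members were higher (Cdkn2a, Cdkn1c) and 1 was lower (Cdkn2b), where 23.0% of all genes were called higher and 24.0% lower. Cdkn2a and Cdkn2b also had groups that did not overlap, as had 40.1% of all genes. Against tissue controls, 2 were higher (Cdkn2a, Cdkn1c) and 2 lower (Cdkn2b, Cdkn1b), with 28.6% of all genes higher and 26.1% lower. Cdkn2a, Cdkn2b and Cdkn1b had groups that did not overlap there, as had 49.1% of all genes. For Cdkn1b the groups overlapped when scaled over all libraries, with tumor 1323 at 62.5 CPM and control 1320, from 25 reads, at 60.8 CPM. Both comparisons share the tumors. Cdkn2a entered the tissue tests through the tumors, where it was high, so its place in these counts is no further support. Adjacent tissue against tissue controls gave 0 called members in either direction with edgeR and with DESeq2, and 1 at an unadjusted p under 0.05 (Cdkn2b, lower). Of all genes, 0.792% were called higher and 0.277% lower there.

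In organoids, H2BdIEC against control gave 1 member lower (Cdkn2d), 0 higher, also 0 at an unadjusted p under 0.05 or with DESeq2, where 1.97% of all genes were lower and 2.08% higher. H2B/p53dIEC against H2BdIEC gave 2 higher (Cdkn2a, Cdkn1c) and 2 lower (Cdkn2b, Cdkn2d), where 13.9% of all genes were higher and 15.4% lower. Groups did not overlap for those 4 and for Cdkn2c, as for 45.7% of all genes. Against control organoids the same 4 genes were called in the same directions, with 16.7% of all genes higher and 16.6% lower. Groups did not overlap for the 4, as for 54.4% of all genes. These comparisons share their control or H2BdIEC libraries, so they are not separate evidence. Cdkn2a entered the H2B/p53dIEC tests only through the group where it was high. Its call and its separation were thus fixed by the filter, and its place in these counts is no support.

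**Figure D2:**
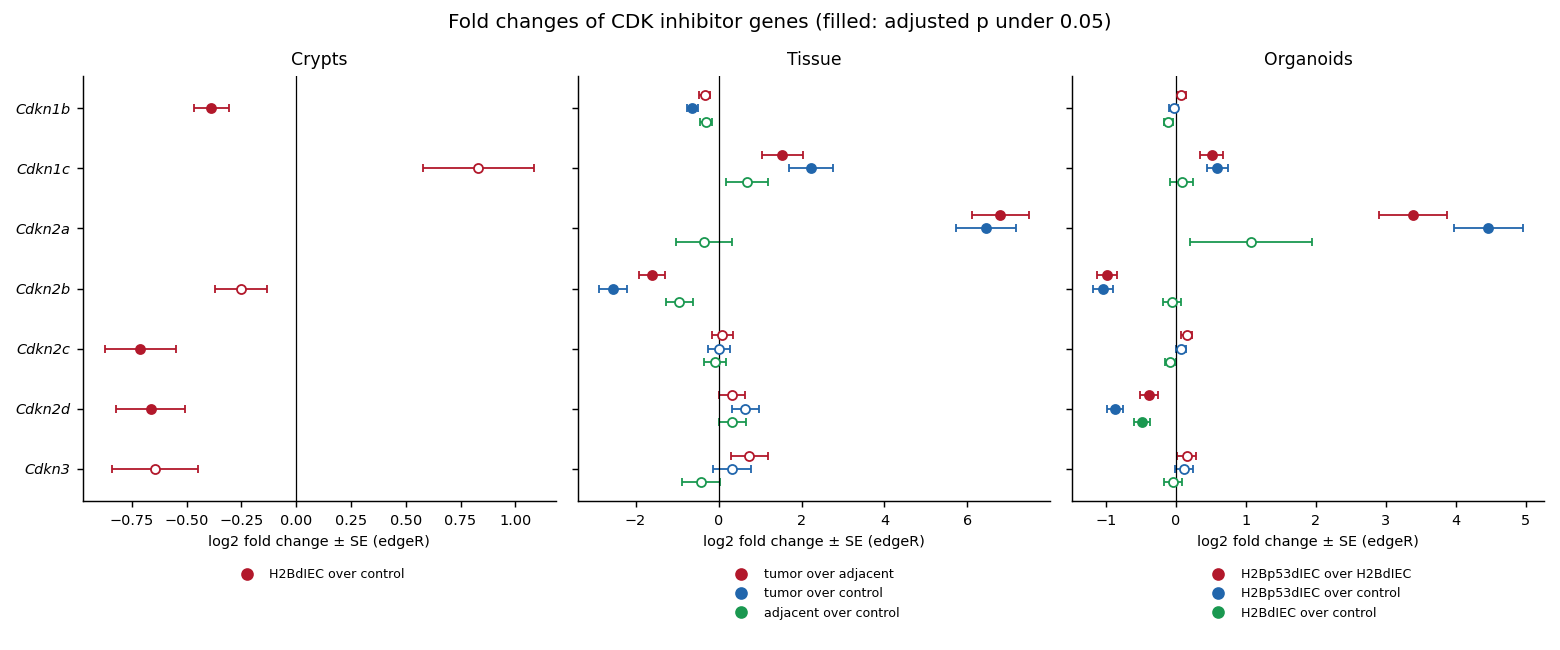
Log2 fold change with its SE (edgeR) of each gene in the 7 comparisons within crypts, tissue and organoids; filled points passed an adjusted p of 0.05, and Cdkn2a was not tested in crypts. Cdkn2a and Cdkn1c lie right of 0 and Cdkn2b left of 0 in both tumor comparisons and both H2B/p53dIEC organoid comparisons.

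Cdkn2a carried the widest change. In tumors of mice 1349, 1323, 1322 and 1319 it stood at 42.5, 98.1, 72.1 and 18.9 CPM, and in adjacent tissue of the same mice at 0.40, 0.21, 0.37 and 1.10 CPM. Tissue controls 1315, 1316 and 1321 held 0.26, 1.07 and 0.75 CPM, and control 1320 held 0 counts, which at its depth allows up to 7.47 CPM. The 4 tumors lay far above all adjacent and control libraries, and adjacent and control libraries overlapped. In raw counts the tumors held 7425 reads together and adjacent tissue 49, a ratio of 154 per read sequenced (95% exact interval 116 to 208, counting error only). The log2 fold change was 6.79 ± 0.68 against adjacent tissue (SE, adjusted p = 2.7e-05, edgeR) and 6.44 ± 0.73 against tissue controls (SE, adjusted p = 2.81e-05, edgeR). The minimum of the filter on low counts was reached in 4 of 4 tumors, 1 of 4 adjacent and 2 of 4 control libraries. Cdkn2a thus entered the tissue test through the tumors, where it was high. These fitted values describe the reads above and are not further support for them. Within a mouse the ratio of tumor to adjacent CPM was 105.0 in 1349, 468 in 1323, 195 in 1322 and 17.1 in 1319, so it was higher in 4 of 4 mice. Adjacent tissue did not differ from tissue controls beyond error, at 49 and 59 reads (ratio 0.816, exact interval 0.547 to 1.21, counting error only; log2 -0.35 ± 0.68, SE, adjusted p = 0.84, edgeR).

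In organoids Cdkn2a was low in absolute terms, with more reads in H2B/p53dIEC than in the other genotypes. The H2B/p53dIEC organoids held 37, 37 and 29 reads, or 2.28, 2.28 and 2.09 CPM. The H2BdIEC organoids held 0, 2 and 5 reads, up to 0.33 CPM, and the control organoids 2, 0 and 3 reads, up to 0.18 CPM. All 3 H2B/p53dIEC libraries lay above all 6 others. The ratio per read sequenced was 11.1 against H2BdIEC (exact interval 5.21 to 28.3) and 25.3 against control organoids (10.5 to 79.6). Cdkn2a entered the test here only through the group where it was high, since the minimum of the filter on low counts was reached in 3 of 3 H2B/p53dIEC, 0 of 3 H2BdIEC and 0 of 3 control organoids. A gene let in that way has to differ, so the fitted values describe the reads above and are not further support for them. The log2 fold changes were 3.39 ± 0.49 (SE, adjusted p = 0.000356, edgeR) and 4.47 ± 0.50 (SE, adjusted p = 3.83e-05, edgeR). Both also passed with no filter, which compares the same reads and is no separate support. In tissue, as given above, Cdkn2a entered through the tumors. In crypts it held 0 to 4 reads per library, 8 in all in H2BdIEC and 6 in all in controls, and was not tested.

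Both H2B/p53dIEC tissues and organoids were compared with floxed controls of their own set, and the difference between those effects was tested. The fitted effect on Cdkn2a was lower in adjacent tissue than in organoids (log2 difference -4.83 ± 0.98, SE, adjusted p = 0.0117, edgeR), a test called lower for 2.41% and higher for 2.88% of all genes. That test held no tumors, and Cdkn2a was low in every library of it outside the H2B/p53dIEC organoids. The fall in Trp53 RNA was also smaller in adjacent tissue than in organoids (log2 difference 2.19 ± 0.27, SE, adjusted p = 0.000492, edgeR). It was smaller in tumors than in organoids too (2.09 ± 0.32, SE, adjusted p = 0.000243, edgeR). Tissue also held cells outside the epithelium. Smooth muscle markers summed to 2350 to 3609 CPM in adjacent tissue, 243 to 638 CPM in tumors and 0.43 to 0.58 CPM in H2B/p53dIEC organoids. The part of such cells in the Trp53 values was not tested. The sets therefore differ in how much Trp53 RNA remained in bulk, and the part of that in the Cdkn2a difference was not tested. Tumor and organoid effects on Cdkn2a differed by 1.95 ± 1.56 (SE, adjusted p = 0.385, edgeR), an interval too wide to rank them. Fibroblast markers (Col1a1, Col1a2, Col3a1, Dcn, Lum, Pdgfra; 6 of 6 detected in tissue) summed to 1285 to 10570 CPM in tumors, 241 to 855 CPM in adjacent tissue and 449.6 to 746 CPM in tissue controls. Tumor 1323, with the highest Cdkn2a, had the highest sum, while tumor 1322, with the next highest Cdkn2a, had the lowest. In H2B/p53dIEC organoids the same sum was 0.25 to 0.37 CPM, with Col1a2, Col3a1 and Dcn at 0 in every library. The part of fibroblasts in the tumor values of Cdkn2a was not tested.

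Cdkn2a lies on the minus strand of chromosome 4, at 89274471 to 89294653 on GRCm38, and Cdkn2b at 89306299 to 89311039 on the same strand, 11.6 kb away. The Cdkn2a transcripts differ in their first exon, at 89294334 to 89294653 for ARF and 89281986 to 89282192 for p16INK4a, and share exon 2 at 89276645 to 89276985. The deposited counts are per gene, so reads of ARF and of p16INK4a cannot be told apart.

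**Figure D3:**
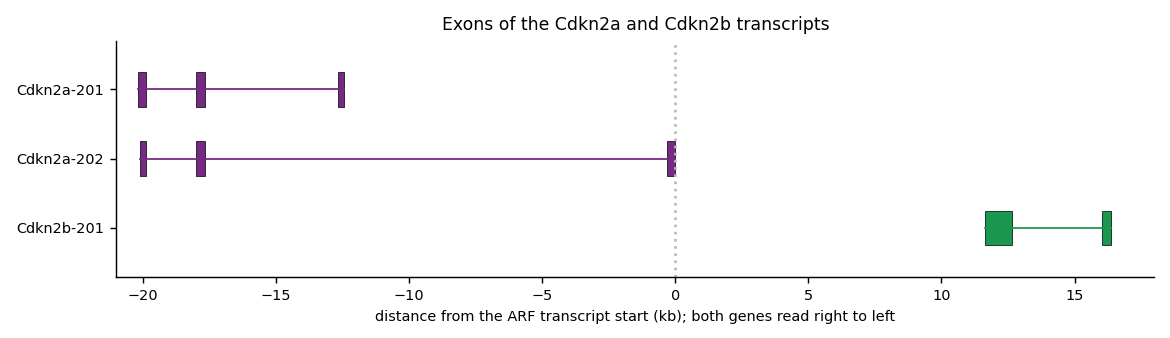
Exons (boxes) of the annotated Cdkn2a transcripts and of Cdkn2b, drawn to scale in kb from the start of the ARF transcript. The first exon of Cdkn2a-202 (ARF) lies between that of Cdkn2a-201 (p16INK4a) and Cdkn2b, and Cdkn2a-201 and Cdkn2a-202 share their downstream exons.

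The stretches upstream of the starts of these neighbouring genes are shown because the genes moved in opposite directions in tumors and in H2B/p53dIEC organoids. Each is the 250 bases before a RefSeq start on GRCm38.p6, 5′ to 3′ on the minus strand, with capitals marking matches on either strand to any of 4 motifs. The E2F-like motif was searched as TTTCCCGC, TTTGGCGC, TTTCGCGC or TTTGCCGC. The GC box was searched as GGGCGG, while the letters of the CHR-like motif were TTTGAA. The remaining motif was the CCAAT box, spelled as its name. The first E2F-like form can share letters with a GC box, but no match printed here overlapped another. They cover chr4:89294620-89294869 for ARF, chr4:89282193-89282442 for p16INK4a and chr4:89311033-89311282 for Cdkn2b.
Cdkn2a ARF start: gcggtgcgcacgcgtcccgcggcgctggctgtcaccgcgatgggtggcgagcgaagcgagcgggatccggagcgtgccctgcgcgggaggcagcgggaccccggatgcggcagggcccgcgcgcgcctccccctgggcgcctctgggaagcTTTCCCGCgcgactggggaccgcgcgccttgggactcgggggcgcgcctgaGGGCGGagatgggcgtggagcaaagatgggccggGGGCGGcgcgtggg
Cdkn2a p16INK4a start: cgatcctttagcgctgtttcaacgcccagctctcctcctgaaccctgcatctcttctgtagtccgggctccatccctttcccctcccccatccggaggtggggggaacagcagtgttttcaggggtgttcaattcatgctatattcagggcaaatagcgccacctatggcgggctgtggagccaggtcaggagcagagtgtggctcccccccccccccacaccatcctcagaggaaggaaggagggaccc
Cdkn2b start: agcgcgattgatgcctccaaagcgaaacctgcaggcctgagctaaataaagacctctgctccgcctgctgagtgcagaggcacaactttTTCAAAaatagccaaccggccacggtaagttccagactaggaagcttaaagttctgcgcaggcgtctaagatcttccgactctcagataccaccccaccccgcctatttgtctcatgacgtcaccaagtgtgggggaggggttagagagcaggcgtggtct
The ARF stretch held 1 E2F-like match and 2 GC boxes, the p16INK4a stretch held none of the 4 motifs, and the Cdkn2b stretch held 1 CHR-like match. Among 32851 promoters of the same length in the RefSeq table, 1.86% held an E2F-like match, 32.7% a GC box, 33.8% a CCAAT box and 5252 promoters a CHR-like match. These matches are descriptions of sequence and do not show that a factor was bound. The table held 6 of the 7 members, without Cdkn1c.

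Cdkn2b, whose product p15 inhibits CDK4 and CDK6 and is a known target of TGF-beta signalling, went the other way from Cdkn2a. In tumors of mice 1349, 1323, 1322 and 1319 it stood at 46.6, 23.7, 15.9 and 33.5 CPM, and in adjacent tissue of the same mice at 85.5, 51.2, 112.2 and 114.5 CPM. Tissue controls 1315, 1316, 1320 and 1321 held 146, 154.5, 198 and 203 CPM. The 3 groups did not overlap, with every tumor below every adjacent library and every adjacent library below every control. The log2 fold change in tumors was -1.60 ± 0.32 against adjacent tissue (SE, adjusted p = 0.00171, edgeR) and -2.54 ± 0.34 against controls (SE, adjusted p = 7.06e-05, edgeR), and it was lower in 4 of 4 mice. Adjacent tissue against controls gave -0.94 ± 0.32 (SE), which did not pass (adjusted p = 0.157, edgeR), although 14.1% of all genes also had groups that did not overlap there.

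The organoids showed the same direction for Cdkn2b with p53 deleted. H2B/p53dIEC organoids held 8.12, 9.85 and 9.37 CPM, H2BdIEC organoids 18.8, 19.5 and 16.1 CPM, and control organoids 16.6, 22.2 and 17.4 CPM. The H2B/p53dIEC libraries lay below all others, and H2BdIEC and control libraries overlapped. Cdkn2b fell in H2B/p53dIEC organoids by 0.99 ± 0.14 on the log2 scale against H2BdIEC (SE, adjusted p = 0.000374, edgeR) and by 1.04 ± 0.14 against control organoids (SE, adjusted p = 0.000138, edgeR). The effect in tumors against their controls was lower than that in organoids against theirs by 1.49 ± 0.38 on the log2 scale (SE, adjusted p = 0.00794, edgeR), a test called lower for 16.1% and higher for 17.2% of all genes. For adjacent tissue the corresponding difference was 0.10 ± 0.33 (SE, adjusted p = 0.999, edgeR). In crypts Cdkn2b ranged from 54.5 to 75.9 CPM in H2BdIEC and from 67.3 to 80.04 CPM in controls, with overlap (log2 -0.25 ± 0.12, SE, adjusted p = 0.182, edgeR).

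Several cell type markers moved with Cdkn2b in tissue. Enterocyte markers (Alpi, Apoa1, Apoa4, Fabp1, Fabp2, Sis, Vil1; 7 of 7 tested) summed to 682 to 17210 CPM in tumors and 20390 to 105300 CPM in adjacent tissue, and 5 of the 7 fell. Smooth muscle markers (Acta2, Myh11, Des, Cnn1, Actg2) summed to 243 to 638 CPM in tumors and 2350 to 3609 CPM in adjacent tissue, and all 5 fell. Epithelial markers summed to 4676 to 7796 CPM in tumors and 8464 to 14070 CPM in adjacent tissue. Stem cell markers (5) went the other way, at 816 to 976 CPM in tumors and 94.8 to 195.5 CPM in adjacent tissue, and 4 of them rose. Tumor 1322 had both the lowest Cdkn2b and the lowest enterocyte sum. Adjacent tissue of mouse 1323 had the lowest Cdkn2b of its group and the highest enterocyte sum of all tissue, at 105300 CPM. Every adjacent library lay below every tissue control in Cdkn2b, a difference that did not pass. Enterocyte sums were 20390 to 40000 CPM in the other adjacent libraries and 16110 to 25340 CPM in tissue controls. The part of these markers in the tissue result was not tested. In organoids, smooth muscle markers summed to 0.43 to 0.58 CPM in H2B/p53dIEC, 0.18 to 0.61 CPM in H2BdIEC and 0.24 to 0.60 CPM in controls. Enterocyte markers there summed to 2730 to 2943, 2606 to 4536 and 2128 to 3356 CPM in the same groups, with overlap. Other markers did move with genotype in organoids. Stem cell markers summed to 2204 to 2256 CPM in H2B/p53dIEC, 1309 to 1424 CPM in H2BdIEC and 1339 to 1570 CPM in controls, so H2B/p53dIEC stood apart, and 4 of the 5 rose there against each other group. Enteroendocrine markers (6) summed to 819 to 872, 1189 to 1249 and 889.9 to 952 CPM in the same groups, without overlap. The part of these markers in the organoid results was not tested.

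**Figure D4:**
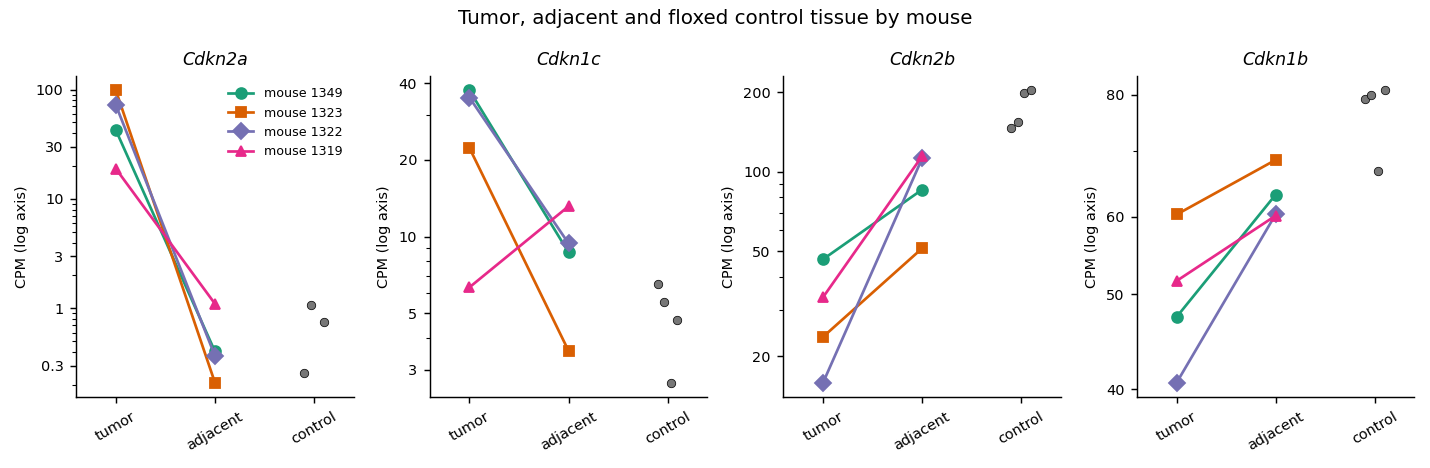
Cdkn2a, Cdkn1c, Cdkn2b and Cdkn1b in CPM on log axes, with lines joining tumor and adjacent tissue of the same mouse and grey points for the 4 tissue controls (Cdkn2a at 0 counts in control 1320 cannot be drawn). Cdkn2a is higher and Cdkn2b and Cdkn1b lower in the tumor of all 4 mice, and Cdkn1c is higher in 3.

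Cdkn2d (chromosome 9, 21288410 to 21291407, minus strand, GRCm38), which encodes p19INK4d, was the member that fell in both H2BdIEC sets. Crypts held 3.09, 3.82, 3.61 and 3.61 CPM in H2BdIEC and 5.16, 5.43, 6.48 and 5.28 CPM in controls, without overlap (log2 -0.66 ± 0.16, SE, adjusted p = 0.0269, edgeR). Organoids held 6.71, 7.02 and 6.63 CPM in H2B/p53dIEC, 7.46, 9.24 and 9.36 CPM in H2BdIEC and 11.9, 12.9 and 12.4 CPM in controls. Scaled within the set, the 3 organoid groups formed a series without overlap, lowest in H2B/p53dIEC. Scaled over all libraries, H2BdIEC A at 5.83 CPM lay below H2B/p53dIEC 2 at 5.87 CPM. Between H2BdIEC and control organoids, 3455 of 15701 genes tested had groups that did not overlap. The log2 fold change was -0.48 ± 0.12 in H2BdIEC against control organoids (SE, adjusted p = 0.0377, edgeR), -0.39 ± 0.12 in H2B/p53dIEC against H2BdIEC (SE, adjusted p = 0.0347, edgeR) and -0.87 ± 0.11 in H2B/p53dIEC against control organoids (SE, adjusted p = 0.00014, edgeR). The difference between the crypt and organoid effects of H2BdIEC was -0.15 ± 0.21 (SE, adjusted p = 0.789, edgeR), in a test called lower for 1.72% and higher for 2.30% of all genes.

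The calls on Cdkn2d in H2BdIEC rested on small groups. In crypts the call was lost in 5 of 8 removals of 1 library (controls 1 and 3, H2BdIEC 1, 3 and 4), with adjusted p from 0.0527 to 0.0975. In organoids it was lost in 4 of 6 (H2BdIEC B, controls A, B and C), with adjusted p from 0.0591 to 0.132, and with only both groups in the fit (adjusted p = 0.144). H2B/p53dIEC against H2BdIEC lost the call in 5 of 6 removals, all but that of H2BdIEC A (adjusted p 0.0775 to 0.116), and with DESeq2 (adjusted p = 0.0638). The call of H2B/p53dIEC against control organoids held in 6 of 6 (edgeR, adjusted p 0.000597 to 0.00164).

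In tissue Cdkn2d did not follow the organoids. Tumors held 12.4, 18.8, 11.5 and 8.76 CPM in mice 1349, 1323, 1322 and 1319, adjacent tissue 6.47, 11.8, 10.9 and 12.3 CPM, and the 3 deep controls 8.26, 11.5 and 6.88 CPM, with overlap. Neither tumor comparison passed (log2 0.31 ± 0.31 against adjacent tissue and 0.64 ± 0.33 against controls, SE, adjusted p = 0.431 and 0.113, edgeR). The tumor effect was higher than the H2B/p53dIEC organoid effect by 1.47 ± 0.39 on the log2 scale (SE, adjusted p = 0.0103, edgeR).

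Cdkn2c (chromosome 4, 109660876 to 109667189, minus strand), which encodes p18 and is known from proliferating and differentiating cells of many tissues, fell in H2BdIEC crypts. Its values were 12.2, 7.86, 8.26 and 9.40 CPM in H2BdIEC and 18.1, 13.5, 16.7 and 13.7 CPM in control crypts, without overlap (log2 -0.71 ± 0.16, SE, adjusted p = 0.0231, edgeR). The call was lost in 5 of 8 removals of 1 library (controls 1 and 3, H2BdIEC 2, 3 and 4), with adjusted p from 0.0542 to 0.0747. Elsewhere Cdkn2c passed no test. Tumors ranged from 6.91 to 17.7 CPM, around the 10.5 to 13.7 CPM of adjacent tissue and the 10.7 to 13.8 CPM of tissue controls. Organoids ranged from 34.2 to 35.4 CPM in H2B/p53dIEC, 29.3 to 32.4 CPM in H2BdIEC and 31.2 to 34.6 CPM in controls. The log2 fold changes in those comparisons lay between -0.08 and 0.15, with adjusted p of 0.172 or more (edgeR). The crypt effect minus the organoid effect of H2BdIEC was -0.61 ± 0.21 (SE, adjusted p = 0.113, edgeR), so a difference between crypts and organoids was not shown. It passed only without H2BdIEC crypt 1, at -0.76 (adjusted p = 0.0273, edgeR).

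Cdkn1b (chromosome 6, 134920401 to 134925513, plus strand), which encodes p27, changed little in size but with small spread. Crypts held 43.5, 42.5, 44.4 and 41.5 CPM in H2BdIEC and 54.7, 54.6, 55.0 and 60.4 CPM in controls, without overlap (log2 -0.39 ± 0.08, SE, adjusted p = 0.0151, edgeR). The call was lost without H2BdIEC crypt 4 (-0.36, adjusted p = 0.0612) and kept in the other 7 removals. Tumors held 47.4, 60.3, 40.6 and 51.6 CPM in mice 1349, 1323, 1322 and 1319, adjacent tissue 63.2, 68.6, 60.4 and 60.2 CPM, and tissue controls 79.1, 79.99, 66.9 and 80.8 CPM. Cdkn1b fell in tumors against controls by 0.63 ± 0.14 on the log2 scale (SE, adjusted p = 0.00222, edgeR). Against adjacent tissue it was lower in 4 of 4 mice but overlapped through tumor 1323 and did not pass (-0.34 ± 0.14, SE, adjusted p = 0.0606, edgeR). Without tumor 1323 it passed (-0.44, adjusted p = 0.0205). In organoids it ranged from 98.5 to 103 CPM in H2B/p53dIEC, 90.3 to 102.2 CPM in H2BdIEC and 100.2 to 106.8 CPM in controls, with no call. The tumor effect was lower than the organoid effect by 0.61 ± 0.18 on the log2 scale (SE, adjusted p = 0.0191, edgeR), a call lost without H2B/p53dIEC organoid 2 (adjusted p = 0.052) or control organoid B (adjusted p = 0.0541).

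Cdkn1c (chromosome 7, 143458339 to 143461050, minus strand), the imprinted gene of p57, was the second member higher in tumors. Tumors of mice 1349, 1323 and 1322 held 37.4, 22.3 and 35.1 CPM, against 8.68, 3.57 and 9.41 CPM in their adjacent tissue, while mouse 1319 held 6.33 CPM in tumor and 13.2 CPM in adjacent tissue. Tissue controls 1315, 1316 and 1321 held 6.50, 5.54 and 4.72 CPM, and control 1320 held 1 read. So 3 of 4 tumors lay above all other tissue libraries, and tumor 1319 lay within the range of adjacent and control tissue. The log2 fold change was 1.54 ± 0.49 against adjacent tissue (SE, adjusted p = 0.0214, edgeR) and 2.23 ± 0.53 against controls (SE, adjusted p = 0.00352, edgeR). The call against adjacent tissue was lost without tumor 1349 (1.29, adjusted p = 0.0618) or tumor 1322 (1.34, adjusted p = 0.0544), and with mouse as a block in a paired fit (1.47 ± 0.68, SE, adjusted p = 0.139, edgeR). Tumor 1319 was also the tumor with the lowest Cdkn2a, and had the highest sums of lymphocyte markers (604 CPM, against 22.04 to 301 CPM in the other tumors) and of enteroendocrine markers (315 CPM, against 39.6 to 95.5 CPM in the other tumors). What part those cells have in its values was not tested.

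In organoids Cdkn1c stood at 7.87, 7.76 and 7.06 CPM in H2B/p53dIEC, 3.55, 5.53 and 6.06 CPM in H2BdIEC and 4.74, 5.04 and 5.30 CPM in controls. Every H2B/p53dIEC library lay above every other. The log2 fold change was 0.51 ± 0.16 against H2BdIEC (SE, adjusted p = 0.0339, edgeR) and 0.59 ± 0.15 against control organoids (SE, adjusted p = 0.0111, edgeR). The first call was lost in 5 of 6 removals of 1 library, all but that of H2BdIEC C (adjusted p 0.0574 to 0.104), and with only both groups in the fit (0.0575), and the second held in 6 of 6 (edgeR, adjusted p 0.023 to 0.0489). In crypts Cdkn1c held 3.47, 2.996, 3.16 and 4.32 CPM in H2BdIEC and 1.61, 2.20, 1.33 and 2.72 CPM in controls, all H2BdIEC above all controls. That did not pass (log2 0.83 ± 0.25, SE, adjusted p = 0.0617, edgeR), but passed with DESeq2 (adjusted p = 0.025) and without control crypt 4 (1.03, adjusted p = 0.036, edgeR). On the opposite strand an antisense gene, Gm44732, overlaps Cdkn1c. The libraries keep strand, but the strand setting of the counting is not given in the sources used here.

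**Figure D5:**
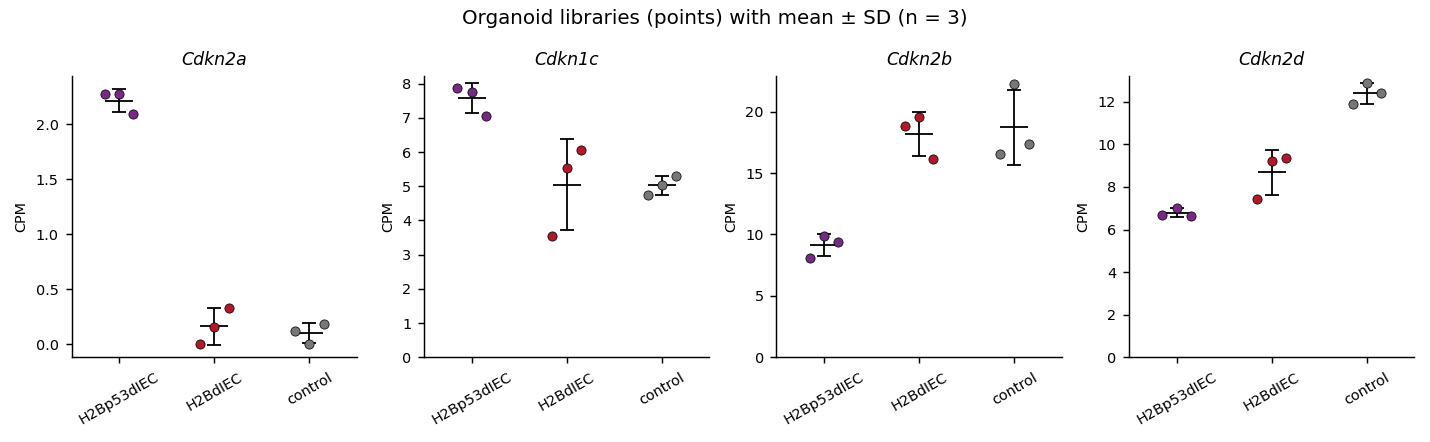
Cdkn2a, Cdkn1c, Cdkn2b and Cdkn2d in the 9 organoid libraries, in CPM on linear axes that include 0, with points for libraries and bars for mean ± SD (n = 3). H2B/p53dIEC libraries lie above both other groups for Cdkn2a and Cdkn1c, and below them for Cdkn2b and Cdkn2d.

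Cdkn3 (chromosome 14, 46760541 to 46771669, plus strand), the phosphatase gene, passed no test in these comparisons. Crypts held 3.90, 2.92, 3.61 and 3.55 CPM in H2BdIEC and 6.59, 3.92, 5.95 and 5.45 CPM in controls, without overlap (log2 -0.64 ± 0.20, SE, adjusted p = 0.0602, edgeR). It passed with DESeq2 (adjusted p = 0.0326) and without control crypt 2 (-0.77, adjusted p = 0.0213, edgeR). Tumors held 9.76, 4.12, 5.65 and 4.19 CPM in mice 1349, 1323, 1322 and 1319, and adjacent tissue 5.30, 2.41, 4.55 and 1.84 CPM, higher in the tumor of 4 of 4 mice but with overlap (log2 0.74 ± 0.45, SE, adjusted p = 0.188, edgeR). Organoids ranged from 15.2 to 17.5 CPM in H2B/p53dIEC, 12.4 to 18.8 CPM in H2BdIEC and 14.5 to 15.7 CPM in controls. Its promoter is shown for the cell cycle motifs it holds, as the 250 bases before the RefSeq start on the plus strand of chromosome 14, chr14:46760291-46760540 on GRCm38.p6, with capitals as above.
Cdkn3 start: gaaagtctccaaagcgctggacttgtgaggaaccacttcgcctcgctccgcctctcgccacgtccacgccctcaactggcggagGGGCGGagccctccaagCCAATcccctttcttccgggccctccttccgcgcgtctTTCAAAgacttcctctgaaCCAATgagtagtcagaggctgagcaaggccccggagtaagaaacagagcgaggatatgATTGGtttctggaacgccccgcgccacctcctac
It held 3 CCAAT boxes on either strand, 1 CHR-like match and 1 GC box.

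The cell cycle genes around the inhibitors gave the following counts. For these and later lists, 23.0% of all genes were called higher and 24.0% lower in tumors against adjacent tissue. The shares were 16.7% and 16.6% in H2B/p53dIEC against control organoids, and 5.16% and 4.87% in crypts. S phase and mitosis genes numbered 20, all tested. In H2BdIEC crypts 2 fell (Ccnb2, -0.61 ± 0.15, adjusted p = 0.0295, and Tyms, -0.40 ± 0.11, adjusted p = 0.0459, SE, edgeR) and 0 rose, with a list median of -0.32 against -0.005 over all genes. In tumors against adjacent tissue 12 rose and 0 fell, with a median of 0.98 against -0.002 over all genes, among them the replication helicase genes Mcm7 (1.15 ± 0.28, SE) and Mcm2 (1.40 ± 0.35, SE). In H2B/p53dIEC against control organoids 13 rose and 0 fell, with a median of 0.31 against -0.004, among them Mcm4 (0.53 ± 0.07, SE) and the mitotic cyclin gene Ccnb2 (0.41 ± 0.06, SE). In H2BdIEC against control organoids the list median was -0.02, against -0.004 over all genes.

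Among 11 genes of the cyclins and CDKs that the inhibitors bind, 6 rose and 0 fell in tumors against adjacent tissue (median 0.69). Cdk4, a partner of the INK4 proteins, stood at 184.8 against 68.6 CPM (log2 1.43 ± 0.22, SE, adjusted p = 0.000314, edgeR). Cyclin D1 (Ccnd1) stood at 196 against 59.0 CPM (1.73 ± 0.40, SE, adjusted p = 0.00429, edgeR). In H2B/p53dIEC against control organoids 5 of the 11 rose and 2 fell. The 2 that fell were the cyclin D genes Ccnd3 (-0.66 ± 0.09, SE, adjusted p = 0.000165, edgeR) and Ccnd2 (-0.49 ± 0.07, SE, adjusted p = 0.000211, edgeR). In crypts 1 of the 11 fell, Ccna2 (cyclin A2, -0.66 ± 0.17, SE, adjusted p = 0.0364, edgeR).

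Of 11 Rb family and E2F genes, 2 rose and 3 fell in tumors against adjacent tissue (median -0.45), near the shares of all genes. Rb1, which encodes the retinoblastoma protein, stood at 20.97 against 74.6 CPM (-1.83 ± 0.26, SE, adjusted p = 0.000173, edgeR), and E2f1 rose (1.62 ± 0.32, SE, adjusted p = 0.00163, edgeR). Organoids of H2B/p53dIEC against control had 4 that rose and 1 that fell. The one that fell was Rb1, at 33.7 against 81.0 CPM (-1.27 ± 0.20, SE, adjusted p = 0.00079, edgeR). In crypts 2 fell, E2f8 (-0.64 ± 0.15, SE, adjusted p = 0.0258, edgeR) and E2f2 (-0.60 ± 0.16, SE, adjusted p = 0.0365, edgeR), both E2F family members.

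Genes known to repress the Cdkn2a locus (12, with Polycomb subunits and the T-box factors Tbx2 and Tbx3) showed no common direction. In tumors against adjacent tissue 2 rose and 3 fell, and the 3 named by smallest p all fell: Tbx3 (-1.79 ± 0.17, SE, adjusted p = 1.7e-05), Cbx7 (-1.17 ± 0.23, SE, adjusted p = 0.00132) and Tbx2 (-1.07 ± 0.23, SE, adjusted p = 0.00236, edgeR). In H2B/p53dIEC against control organoids 2 of 11 tested rose and 2 fell. Bmi1, a Polycomb subunit, rose (0.66 ± 0.08, SE, adjusted p = 4.82e-05, edgeR), and Tbx3 fell (-0.54 ± 0.07, SE, adjusted p = 0.00016, edgeR). Of 8 activators and ARF partners, Npm1 (1.19 ± 0.20, SE, adjusted p = 0.000514, edgeR) and Myc (1.77 ± 0.38, SE, adjusted p = 0.0028, edgeR) were the 2 that rose in tumors against adjacent tissue, and 0 fell. In crypts Kdm6b, a histone demethylase gene (0.80 ± 0.15, SE, adjusted p = 0.0106, edgeR), and Mdm2, a p53 target (0.68 ± 0.13, SE, adjusted p = 0.0116, edgeR), were the 2 that rose, and 0 fell.

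The chromosomal neighbours of the members were also read. Beside Cdkn2a, Mtap, a methionine salvage gene, rose in tumors to 54.0 CPM, against 12.7 CPM in adjacent tissue (2.09 ± 0.19, SE, adjusted p = 1.48e-05, edgeR), and the second testable neighbour, Klhl9, did not pass. In H2B/p53dIEC against H2BdIEC organoids both fell, Klhl9 by 0.38 ± 0.06 (SE, adjusted p = 0.000927, edgeR) and Mtap by 0.26 ± 0.08 (SE, adjusted p = 0.0358, edgeR) on the log2 scale. Of 10 imprinted neighbours of Cdkn1c, 7 rose and 1 fell in tumors against adjacent tissue (median 1.27). H19, a long noncoding RNA, stood at 1539 against 6.45 CPM (7.90 ± 0.58, SE, adjusted p = 4.62e-06, edgeR), and Igf2, a growth factor gene, at 308 against 13.3 CPM (4.53 ± 0.46, SE, adjusted p = 2.95e-05, edgeR). In adjacent tissue against controls H19 was the 1 of the 10 that rose (6.45 against 1.32 CPM, 2.84 ± 0.54, SE, adjusted p = 0.0313, edgeR). In H2B/p53dIEC against control organoids 5 of 9 tested rose and 2 fell, with Ascl2, an intestinal stem cell factor gene, at 25.3 against 14.3 CPM (0.82 ± 0.13, SE, adjusted p = 0.000596, edgeR).

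Of 10 genes of TGF-beta signalling, 4 rose and 1 fell in tumors against adjacent tissue, with the ligand gene Tgfb1 at 43.2 against 15.3 CPM (1.49 ± 0.38, SE, adjusted p = 0.00686, edgeR) and the inhibitor gene Smad7 at 23.0 against 39.6 CPM (-0.78 ± 0.20, SE, adjusted p = 0.00677, edgeR). In crypts the receptor gene Tgfbr2 rose (0.84 ± 0.15, SE, adjusted p = 0.00931, edgeR) and Tgfbr1 fell (-0.57 ± 0.09, SE, adjusted p = 0.0055, edgeR), while 7 others did not pass. All 12 genes of the senescence-associated secretory and lamin list rose in tumors against adjacent tissue (median 2.33), among them the cytokine gene Il6 at 34.8 against 0.30 CPM (6.80 ± 0.65, SE, adjusted p = 1.94e-05, edgeR). Of the 8 tested in H2B/p53dIEC against control organoids, 1 rose and 2 fell. That list holds genes expressed by fibroblasts and myeloid cells, whose mean marker sums were higher in tumors, at 4408 against 615 CPM and 612 against 316 CPM in adjacent tissue, the myeloid ranges overlapping. The part of those cells in the rise of that list was not tested. Of 10 matched genes for the turnover and localisation of p27, 2 rose and 4 fell in tumors against adjacent tissue. Cks1b, a cofactor of p27 degradation, stood at 43.4 against 9.13 CPM (2.25 ± 0.41, SE, adjusted p = 0.000966, edgeR), and Foxo3, a factor that activates Cdkn1b, at 55.9 against 108.9 CPM (-0.96 ± 0.14, SE, adjusted p = 0.000219, edgeR).

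In the crypt comparison the make-up of the samples differed between genotypes beside the lower Cdkn1b, Cdkn2c and Cdkn2d. Paneth cell markers (6) summed to 1989 to 3186 CPM in H2BdIEC and 4455 to 11760 CPM in controls, and 5 of them fell. Stem cell markers (5) summed to 265 to 395 CPM in H2BdIEC and 717 to 828 CPM in controls, and 3 fell. Enterocyte markers summed to 26600 to 36200 CPM in H2BdIEC and 17370 to 24670 CPM in controls, with 2 of 7 higher and 0 lower. Acinar pancreas markers summed to 348 CPM in H2BdIEC crypt 2 alone. They summed to 18.4 to 22.5 CPM in the other H2BdIEC crypts and 4.38 to 7.96 CPM in controls. Organoids held 21.4 to 32.9 CPM of the same list. Mitochondrial transcripts took 9.30% to 15.7% of counts in H2BdIEC and 4.33% to 10.4% in controls. The part of these differences in the member results was not tested.

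Cdkn1a, the gene of p21, moved with some called members and against others. It rose in crypts, where Cdkn1b, Cdkn2c and Cdkn2d fell. In tumors against adjacent tissue it fell with Cdkn2b, while Cdkn2a and Cdkn1c rose. In H2B/p53dIEC against H2BdIEC organoids it fell with Cdkn2b and Cdkn2d, while Cdkn2a and Cdkn1c rose. Between H2BdIEC and control organoids it was not called (adjusted p = 0.649, edgeR). It was higher in H2BdIEC crypts, at 84.8 to 109.9 CPM against 56.5 to 68.2 CPM in controls, and lower in tumors, at 66.3 to 168 CPM against 357 to 743 CPM in adjacent tissue, and in H2B/p53dIEC organoids, at 66.3 to 72.4 CPM against 304 to 324.5 CPM in H2BdIEC organoids (adjusted p = 0.00374, 0.000254 and 3.75e-08, edgeR).

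Over all 29 libraries, with log2 CPM centred within each set, the genes whose pattern was most like that of a member were ranked among 9293 protein-coding genes by Pearson's r, as a description that shares libraries and depth. For Cdkn2a they were Gna12, Tmem132a and Pbx3, each at an r of 0.93. For Cdkn2b they were Tcea3, Casp1 and Gfm2, each at 0.94. For Cdkn1c they were Cd63 (0.87), Psma3 (0.86) and Emd (0.85), for Cdkn1b Dmd (0.86), Nr2c2 (0.85) and Auh (0.85), and for Cdkn2c Cc2d2a (0.82), Mbp (0.79) and Limk2 (0.76). For Cdkn3 they included Ttk (0.98) and Cdca2 (0.97), and for Cdkn2d Nup88 (0.86), Phf21a (0.84) and Timm44 (0.82). Without the shallow tissue control 1320 the values for Cdkn3 were 0.87 and 0.82 and those for Cdkn2d were 0.71, 0.69 and 0.62, whereas the others moved by 0.04 or less.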

How the data were processed

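RNA was isolated with the RNeasy Mini Kit and sequenced from TruSeq stranded mRNA libraries, per the labels' protocols. The authors deposited raw read counts per Ensembl gene for each of the 29 libraries. The submitters' processing notes name cutadapt 1.5 and 1.9, Trimmomatic 0.36, TopHat2 2.0.14, HTSeq and the build GRCm38, and the strand setting of counting is not given in the sources used here. Symbols and positions came from GENCODE M21.

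Crypts, tissue and organoids were each fitted alone with edgeR 4.0.16 (R 4.3.3): genes kept by filterByExpr, TMM scaling, 1 coefficient per group, robust quasi-likelihood test, Benjamini-Hochberg adjustment over all genes tested and a threshold of 0.05. SE is the log2 fold change divided by the root of the F statistic. Differences of effects between sets were tested as contrasts of one fit over both sets. CPM is scaled by TMM within a set. Intervals of count ratios are exact and cover counting error only. The fits were tested on simulated counts.

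The 7 members, the pathway lists and the marker lists were chosen with earlier results of these data known. All 7 members are named. Of each pathway list, up to 3 called genes with the smallest p per comparison were open to naming. Some genes that this rule would name are not reported here. Alternatives were DESeq2 1.42.0, its size factors in edgeR, no filter, at least 1 CPM, only both groups compared, 1 library left out, and blocks by mouse or organoid letter. Tumor and adjacent tissue are paired by mouse, with correlations of their deviations of 0.156, -0.164, 0.12 and 0.0641. Replicates differed by more than sampling noise in every group, with the lowest pairwise chi-square per degree of freedom at 1.93.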

Additional observations from a re-analysis of the deposited data

Results flagged for a closer look

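Of 35 groups of 4 libraries examined among the members, 3 held a library far from the other 3, where chance gives about 1 in 20. Cdkn1b stood at 60.35 CPM in control crypt 4, against 54.56 to 55.02 CPM in the other control crypts. Cdkn1b stood at 66.9 CPM in tissue control 1320, from 25 reads, against 79.14 to 80.77 CPM in the other tissue controls. Cdkn2a stood at 0.108 CPM in control crypt 2, from 3 reads, against 1 read in each other control crypt.

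Of 20 tests of a difference between effects in separate sets, 4 passed (edgeR). Of all genes, 17.2% were called higher and 16.1% lower in tumors minus organoids, the contrast that gave the calls of Cdkn1b, Cdkn2b and Cdkn2d. The shares were 2.88% and 2.41% in adjacent tissue minus organoids, and 2.30% and 1.72% in crypts minus organoids. For Cdkn2a the effect of H2B/p53dIEC was lower in adjacent tissue than in organoids (log2 difference -4.83, adjusted p = 0.0117). It passed in 14 of 14 removals of 1 library, but the minimum of its own set's filter on low counts was reached in 3 of 3 H2B/p53dIEC organoids, 0 of 3 control organoids, 1 of 4 adjacent and 2 of 4 control tissue libraries. Those removals are no sign of stability for a gene at or near that minimum in most libraries compared. For the effect in tumors minus that in H2B/p53dIEC organoids the differences were -0.61 for Cdkn1b, -1.49 for Cdkn2b and 1.47 for Cdkn2d. Those of Cdkn2b and Cdkn2d passed in 14 of 14 removals and that of Cdkn1b in 12 of 14.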

How the results depend on the processing

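The calls of Cdkn2b in tumors and in H2B/p53dIEC organoids passed in every removal of 1 library, as did those of Cdkn2a, which is no sign of stability for a gene tested through the groups where it was high. Counts of members called moved as follows. With DESeq2, 1 was higher in crypts and 1 lower in H2B/p53dIEC against H2BdIEC organoids, as without a filter. DESeq2 called 1280 of 17308 genes higher in crypts and 2409 of 17114 genes lower in that organoid comparison. At 1 CPM or more, 2 were lower in tumors against adjacent tissue. With only both groups fitted, 1 was higher in tumors against adjacent tissue, 0 were lower in H2BdIEC against control organoids, and 1 was higher and 1 lower in H2B/p53dIEC against H2BdIEC organoids. With the mouse as a paired block 1 was higher in tumors against adjacent tissue, and Cdkn2c stood at -0.002832. With the organoid letter as a block, where letters did not pair the libraries (r of 0.000902, -0.178 and 0.102), 0 were lower in H2BdIEC organoids. With DESeq2 size factors 2 were higher in tumors minus organoids, and Cdkn2c stood at 0.02 there. Cdkn2c in tumors against controls was -0.01 with both groups alone.

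Over removals of 1 library, counts ranged from 0 to 1 higher and 0 to 4 lower in crypts, 1 to 2 in each direction in tumors against adjacent tissue, in H2B/p53dIEC against H2BdIEC organoids and in tumors minus organoids, and 0 to 1 lower in H2BdIEC organoids and in crypts minus organoids. They ranged from 0 to 1 higher in adjacent tissue minus organoids. Log2 values that changed sign, none called, ranged for Cdkn2c from -0.12 to 0.29 (tumors against adjacent), -0.19 to 0.22 (tumors against controls) and -0.29 to 0.11 (tumors minus organoids), and for Cdkn3 from -0.02 to 0.47 (tumors against controls), -0.18 to 0.09 (H2BdIEC organoids) and -0.24 to 0.27 (tumors minus organoids). For Cdkn1c they ranged from -0.06 to 0.21 (H2BdIEC organoids) and -0.19 to 0.33 (adjacent minus organoids), for Cdkn2b from -0.14 to 0.09 and -0.05 to 0.3 in those same comparisons, and for Cdkn2a from -0.98 to 0.09 (adjacent against controls). Without tissue control 1320, an alternative chosen after seeing the data, no call in tumors against adjacent tissue changed. Of 56 group levels, 29 moved by over 1 SD when scaled within a set. The cause of these changes was not tested, and the 401365 reads of control 1320 limit every member at low level in it.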
